A study of Mus musculus with 99 samples.

Results

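The messenger RNAs of 9 genes that mark microglia in mouse brain were followed through 5 brain regions of juvenile mice: Cx3cr1, P2ry12, Tmem119, Csf1r, Aif1, Trem2, C1qa, C1qb and C1qc. They were found by gene symbol among the 55335 gene identifiers counted in each library, and all 9 were present. The mice were wildtype C57BL/6 offspring of dams whose drinking water held fentanyl, a synthetic opioid agonist, at 10 µg/ml from embryonic day 0 of the pregnancy until weaning, and the comparison groups came from dams that drank water without the drug. Pups could therefore meet the drug through the dam before birth and during nursing. Bulk RNA from tissue punches of the ventral tegmental area (VTA), ventrobasal thalamus (VBT), somatosensory cortex (S1), prelimbic cortex (PrL) and nucleus accumbens (NAc) was sequenced in females and males, which gave 20 groups of 5 libraries, except S1 water males with 4. The labels name neither litters nor which libraries come from 1 animal, so the p-values measure the spread between these libraries.

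The 98 libraries used held 23032078 to 52069639 counts in genes, with a median of 36024982. VTA water male 3 was left out: 6333 genes had a count in it, against 24079 to 27347 in the others. The regional labels were checked against marker lists, each summarised as a score, the mean log2(CPM + 1) of 6 genes (CPM, a gene's counts scaled to the library's total in genes). In 3 VBT libraries the striatal score was above 5, while the other 17 lay between 3.05 and 4.83. They were water female 2 (5.98), fentanyl male 5 (5.44) and water male 3 (6.65, above its thalamic score of 6.41). In 1 VTA library, fentanyl female 3, the thalamic score of 4.57 was slightly above the VTA score of 4.49. The cortical score of NAc libraries ran from 2.33 to 6.07. Results that rest on the 3 VBT libraries are given with and without them, an alternative chosen after seeing the data.

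Microglia are the resident macrophages of the brain parenchyma. They depend on signalling through the Csf1r receptor, survey neurons and synapses with motile processes, and take part in the removal of synapses while circuits mature. Cx3cr1 is the receptor for the neuronal chemokine Cx3cl1. P2ry12 senses nucleotides released from cells and directs the processes towards them, and Tmem119 is a surface protein of unsettled function used as a marker that separates microglia from blood-derived macrophages. Aif1 encodes the actin-binding protein Iba1. Trem2 is a lipid-sensing receptor of phagocytes, and C1qa, C1qb and C1qc encode the chains of C1q, which starts the classical complement cascade and tags synapses for removal.

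The myeloid transcription factor Spi1 binds purine-rich DNA around the letters GAGGAA, so the promoters were searched for that string. RefSeq promoter windows of the 250 bases before the start site (build GRCm38.p6) were matched for 6 of the 9 genes, namely Cx3cr1, P2ry12, Aif1, Trem2, C1qb and C1qc. The following windows are shown because they lie wholly outside annotated exons and hold the string, in capitals, within 50 bases of the start, and because C1qb and Trem2 stand at opposite ends of the abundance order. Both run 5′ to 3′ in the direction of the gene, C1qb from chr4:136886201-136886450 (minus strand) and Trem2 from chr17:48346151-48346400 (plus strand), where the capitals are the reverse complement of the string.
C1qb: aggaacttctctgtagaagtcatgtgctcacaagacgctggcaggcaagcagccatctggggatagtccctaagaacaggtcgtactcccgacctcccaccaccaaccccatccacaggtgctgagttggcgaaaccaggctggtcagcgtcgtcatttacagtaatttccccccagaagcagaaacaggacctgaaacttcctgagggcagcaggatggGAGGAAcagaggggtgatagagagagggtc
Trem2: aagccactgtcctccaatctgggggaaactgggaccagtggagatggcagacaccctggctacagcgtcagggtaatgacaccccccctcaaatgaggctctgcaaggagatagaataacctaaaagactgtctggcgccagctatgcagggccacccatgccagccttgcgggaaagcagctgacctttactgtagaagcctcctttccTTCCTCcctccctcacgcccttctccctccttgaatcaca
On either strand, GAGGAA occurred in 4 of the 6 windows, those of Aif1, Trem2, C1qb and C1qc, against 23.3% of 32851 RefSeq promoters of the same length. Annotated exons of any gene cover all 250 bases of the Cx3cr1 and P2ry12 windows, 151 of C1qc and 16 of Aif1. The longer string GAGGAAGT, which contains it, occurred in 1 of the 6 (C1qc) against 2.44% of promoters. TATAAA occurred in 0 of the 6 against 12.4%. These matches describe letters in a window of 250 bases and do not show binding.

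In GRCm38 with the GENCODE M21 annotation, the C1q genes form a cluster on the minus strand of chromosome 4, with C1qb at 136880129 to 136886187, C1qc at 136889804 to 136893065 and C1qa at 136895917 to 136898803. Cx3cr1 lies on chromosome 9 (119901616 to 120069879), P2ry12 on chromosome 3 (59216272 to 59262871) and Tmem119 on chromosome 5 (113793729 to 113800516). Aif1 (35170991 to 35176068) and Trem2 (48346401 to 48354147) both lie on chromosome 17. Counts were made over the exons of these genes.

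Scaled to exon length (RPKM, the CPM per kilobase of exon), the transcripts of C1q and the main surface receptors were present in all 98 libraries, whereas Trem2 was close to undetected. C1qb had the highest level, at 22.9 ± 3.19 RPKM (SD, n = 98), and C1qa followed at 20.8 ± 3.66. Csf1r (13.8 ± 2.15), P2ry12 (12.2 ± 3.79) and Cx3cr1 (11.2 ± 2.46) formed a middle group whose ranges overlapped, and C1qc stood at 9.03 ± 1.79. Tmem119 reached 6.58 ± 1.36 and Aif1 2.99 ± 0.817 RPKM. Trem2 came to 0.0778 ± 0.238 RPKM. The spread of Trem2 therefore exceeded its mean, whereas that of every other member was below its mean. Of the Csf1r exon bases, 15.1% are shared with the overlapping genes Hmgxb3 and Mir6983, and how the counting treated strand is not given in the sources used here. The shared part was 1.7% for Cx3cr1 and 0.4% for P2ry12, and 0.0% for the other 6 genes.

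Across regions, all 9 genes were lower in the VTA than in PrL and the NAc, and all but Trem2 were lower than in S1. Trem2 rests on few counts there (median 5 per library over all regions). Of the 9 genes, 5 to 8 were lower in the VBT than in each of those forebrain regions. Of the 8 that passed between VTA and S1, P2ry12 differed most, with a VTA level 0.489 of that in S1, and C1qa least, at 0.823. In the water libraries alone, 9 were lower than in PrL, 6 than in S1 and 5 than in the NAc. That fit holds fewer libraries, and its share of all genes passing is not given here. The VTA differences of C1qa and C1qb from S1 and from the NAc did not pass there, nor did those of C1qc and Trem2 from the NAc. In the VBT, Cx3cr1, P2ry12, Tmem119, Csf1r and Aif1 were lower than in S1, while none of the C1q genes passed the test against S1 or the NAc. With offsets for GC content, an alternative chosen after seeing the data, C1qa (-0.12, adjusted p = 0.029) and C1qc (-0.19, adjusted p = 0.0021) were lower in the VBT than in the NAc. In bulk tissue, fewer microglia and less RNA per microglial cell cannot be told apart. All 5 regions were fitted together with 20 groups over 98 libraries, so the region pairs share libraries.

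P2ry12 showed the clearest separation between regions. Its CPM ran from 15.8 to 26.3 in the VTA (median 22.1, n = 19) and from 16.6 to 36.1 in the VBT (median 18.7, n = 20). In S1 it ran from 28.9 to 49.5 (median 39.1, n = 19), in PrL from 32.3 to 44.9 (median 35.99, n = 20), and in the NAc from 29.7 to 43.5 (median 37.97, n = 20). No VTA library reached the lowest library of the 3 forebrain regions, and without water male 3 the highest VBT library (26.2) did not either. With edgeR's quasi-likelihood test and Benjamini-Hochberg adjustment over 22326 genes, the log2 difference was -1.03 ± 0.06 (SE) for VTA minus S1 (adjusted p = 7.0e-29) and -0.92 ± 0.06 for VBT minus S1 (adjusted p = 1.6e-26). VTA and VBT did not pass the test against each other (-0.11, adjusted p = 0.094). Their mean CPM ran the other way (21.2 in the VTA and 20.3 in the VBT). CPM are scaled to a library's total, whereas tested differences also use a further scaling factor per library (TMM). Sizes and signs can therefore differ between levels and tests. Leaving out the 3 VBT libraries with striatal markers gave -0.997 for VBT minus S1 and -0.03 for VTA minus VBT (adjusted p = 0.584).

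Cx3cr1 was also higher in the 3 forebrain regions than in the VTA and VBT. It averaged 37.7 ± 3.89 CPM in the VTA and 40.3 ± 8.35 in the VBT, against 58.8 ± 7.07 in S1, 56.7 ± 4.39 in PrL and 58.0 ± 5.84 in the NAc. S1, the NAc and PrL did not pass the test as neighbours in this order, PrL exceeded the VBT, and the VBT exceeded the VTA (0.25 ± 0.05 on the log2 scale, adjusted p = 1.9e-06). Csf1r averaged 67.4 ± 7.23 CPM in the VTA, 71.3 ± 11.4 in the VBT, 90.8 ± 9.95 in S1, 84.9 ± 3.81 in PrL and 84.5 ± 9.92 in the NAc. Its order was S1 and PrL, whose difference did not pass, then the NAc, the VBT and the VTA, each step of which passed the test.

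Tmem119 was highest in PrL (17.8 ± 1.65 CPM), then the NAc (17.0 ± 2.29) and S1 (16.4 ± 2.23), a pair that did not pass against each other, and lower in the VBT (13.4 ± 2.18) and again in the VTA (11.4 ± 1.80). Aif1 split the regions into an upper and a lower set: the NAc (5.72 ± 1.06 CPM), PrL (5.32 ± 0.788) and S1 (5.04 ± 0.788) did not pass the test as neighbours, nor did the VTA (3.50 ± 0.535) and the VBT (3.33 ± 0.656). The step from S1 to the VTA, 0.63 on the log2 scale, passed the test (adjusted p = 4.9e-13).

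All 3 C1q genes had their lowest mean in the VTA over water and fentanyl libraries together. C1qb averaged 22.0 ± 3.02 CPM in the VTA, 25.4 ± 3.97 in the VBT, 25.2 ± 2.92 in S1, 25.5 ± 1.95 in PrL and 26.3 ± 3.798 in the NAc, and its libraries overlapped between all regions. Neighbours among the 4 higher regions did not pass the test, and VTA minus S1 was -0.30 ± 0.05 (log2, adjusted p = 1.2e-07), and -0.18 in water libraries alone (adjusted p = 0.064). C1qa averaged 18.5 ± 3.57 CPM in the VTA against 20.8 ± 2.92 (S1) to 23.9 ± 2.52 (PrL) elsewhere, and C1qc 13.7 ± 2.22 against 17.4 ± 4.03 (VBT) to 19.2 ± 2.65 (NAc). The RPKM ratio of P2ry12 to C1qb was 0.340 ± 0.0331 in the VBT, 0.423 ± 0.103 in the VTA, and 0.616 ± 0.0696 (NAc), 0.627 ± 0.0796 (PrL) and 0.677 ± 0.103 (S1) in the forebrain. The region means of the ratio of C1qa to C1qb lay between 0.864 and 0.983, while single libraries ran from 0.696 (VTA) to 1.096 (PrL). Within the VTA this ratio averaged 0.944 ± 0.0697 in water males (n = 4) and 0.790 ± 0.0662 in fentanyl males (n = 5).

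**Figure D1:**
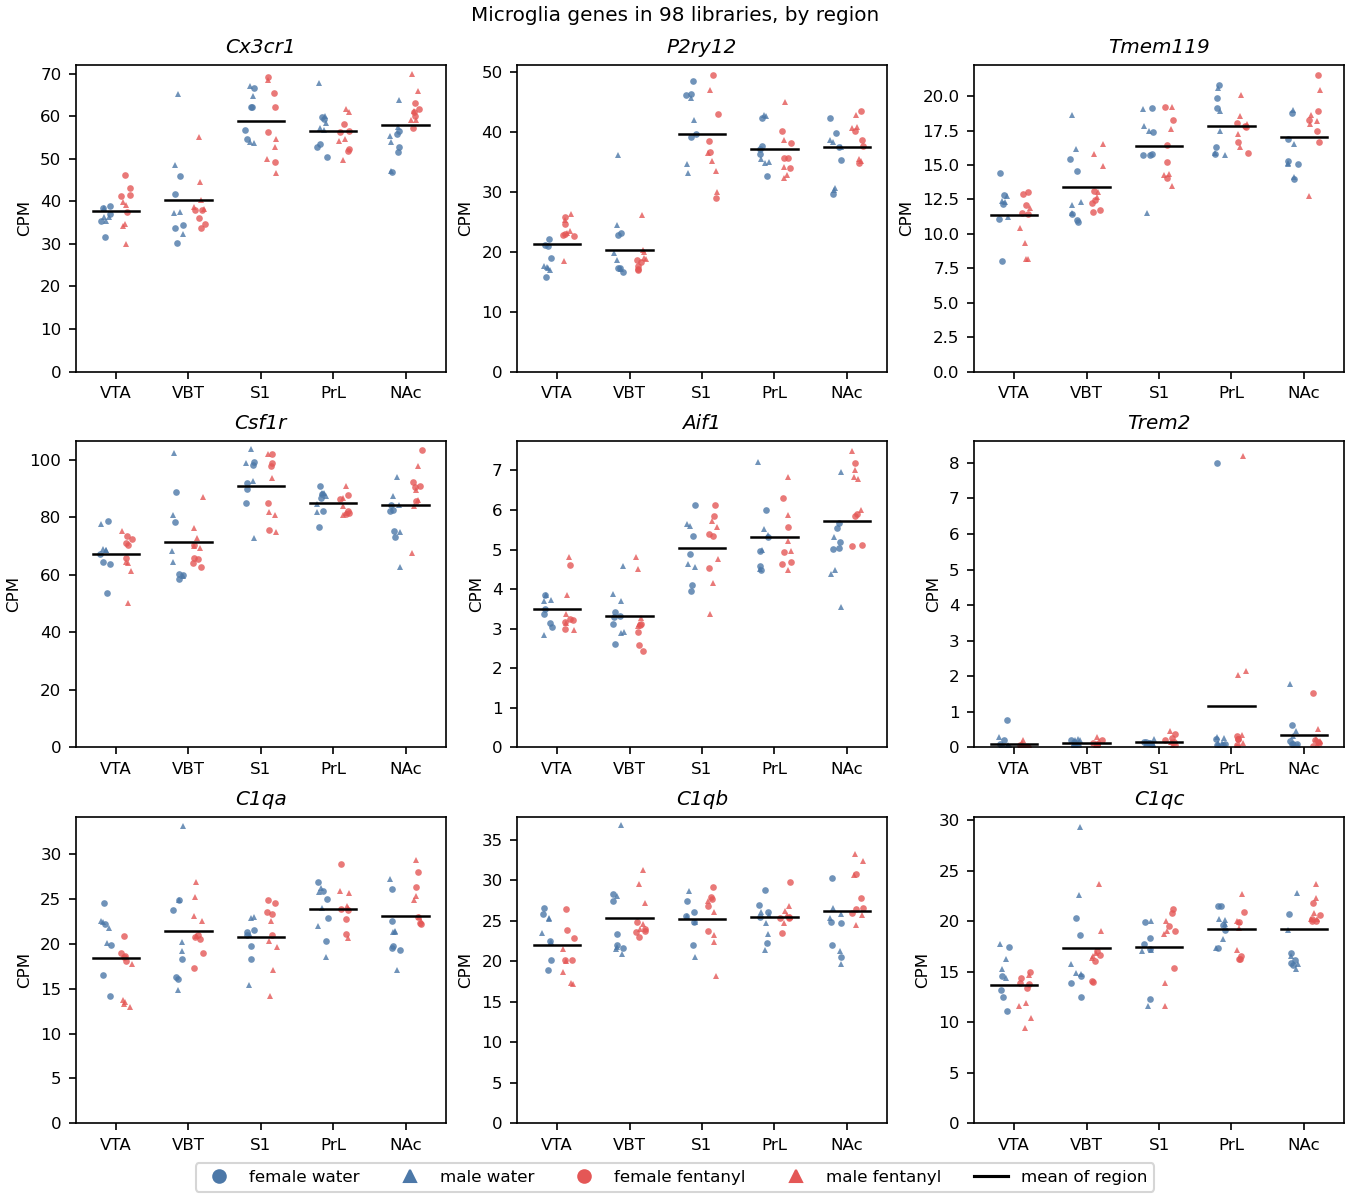
Level (CPM) of each of the 9 genes in every library, by region (circles, females, and triangles, males; blue, water, and red, fentanyl; the line is the region mean). P2ry12 in the VTA (15.8 to 26.3) lies below all S1, PrL and NAc libraries, whereas the C1qb points of the 5 regions overlap and Trem2 lies near 0 apart from a few libraries.

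Most genes differed between these regions, so the counts of members that passed were set beside the share of all genes that passed in the same direction, with the share in either direction after it. VTA minus VBT had 6 of the 9 lower (all genes lower, 32.8%, and either way, 66%). VTA minus S1 had 8 lower (36.3% and 74%), VTA minus PrL 9 (37.2% and 75.8%) and VTA minus NAc 9 (37.9% and 75.4%). VBT minus S1 had 5 lower (37.1% and 74.3%), VBT minus PrL 8 (37.8% and 76.1%) and VBT minus NAc 6 (38.8% and 75.9%). No member passed as higher in any of these 7 pairs. In water libraries alone, VBT minus NAc had 3 lower and 1 higher, C1qb (0.20, adjusted p = 0.031), with the share of all genes not given here. Among forebrain regions, S1 minus PrL had 4 lower (C1qa, C1qc, Tmem119 and Trem2; 25.2% and 52.2%), S1 minus NAc 2 higher (Csf1r and P2ry12; 31.7% and 64.7%) and PrL minus NAc 3 higher (Tmem119, Csf1r and C1qa; 31.5% and 65.7%). With 1 replicate number left out of every group, these 3 counts fell at the lowest to 2 (without number 2 or 5), 1 (without 4) and 1 (without 1). In such fits VTA minus NAc fell to 8 at the lowest, VBT minus PrL to 6 and VBT minus NAc to 5. Trem2 rests on few libraries: without the libraries numbered 5, its difference from PrL no longer passed in the VBT (-0.76, adjusted p = 0.145) or S1 (-0.78, adjusted p = 0.189). The median log2 difference of the members was -0.63 for VTA minus S1 and -0.27 for VBT minus S1 (all genes, 0.01 for VTA minus S1).

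GC content moved with the contrast between P2ry12 and the C1q genes. The longest P2ry12 transcript is 38.6% GC, against 57.4% to 59.5% for the C1q transcripts, with the other members between 50.3% (Cx3cr1) and 59.1% (Tmem119). With offsets for GC content in the fit over all regions, an alternative added after seeing the data, the VBT minus S1 difference of P2ry12 was -0.63 and the VTA minus VBT difference -0.34, which then passed (adjusted p = 4.8e-08). In the same fit C1qb was lower in the VBT than in PrL (-0.12, adjusted p = 0.011), where the difference without offsets was 0.01. The VTA minus S1 difference of P2ry12 was -0.97 with the offsets. Whether GC content accounts for the remaining contrast was not tested.

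The levels in the VBT also moved with tissue makeup. The 3 VBT libraries with striatal markers had a summed level of the 9 genes of 250.3, 271 and 326 CPM, against 171 to 249.7 (median 196.5) in the other 17. Their summed oligodendrocyte markers were 35128, 35176 and 45833 CPM, against 17205 to 32021. Without them the members lower in the VBT numbered 5 against S1, 8 against PrL and 5 against the NAc. Oligodendrocyte markers also moved with the regions. Between the VTA or VBT and each forebrain region, 74% to 76.1% of all genes passed either way. All 6 oligodendrocyte markers were higher in the VTA than in S1 (median log2 difference 2.14), PrL (3.83) and the NAc (1.36). They were also all higher in the VBT than in S1 (2.59), PrL (4.27) and the NAc (1.82). Their summed level had a median of 19632 CPM in the VTA and 23106 in the VBT, against 3626 in S1, 1088 in PrL and 7425 in the NAc. All 6 endothelial markers were higher than in PrL and the NAc in both the VTA (medians 0.47 and 0.49) and the VBT (0.56 and 0.56), with summed medians of 334 and 320.2 CPM against 221 and 238. Choroid plexus markers were higher in the VTA than in PrL for 4 of 6 (median 1.64), and against the NAc 4 were higher and 1 lower (median 1.53). Their sums ran from 3.12 to 4575 CPM over all libraries. Of 6 astrocyte markers, 4 were higher and 2 lower in both the VTA and the VBT than in PrL (median 0.57 each) and the NAc (0.57 and 0.56). The part of tissue makeup in the differences between regions was not tested.

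Other myeloid genes were read from lists of genes outside the 9, and the lists did not all follow the members. Against S1, 36.3% of all genes passed as lower in the VTA (74% either way) and 37.1% as lower in the VBT (74.3% either way). Of 15 further genes of homeostatic microglia, such as Gpr34 and P2ry13, 13 were lower and 2 higher in the VTA than in S1 (median log2 difference -0.46), and 10 were lower and 2 higher in the VBT (median -0.31). Of 18 genes common to myeloid cells, such as Itgam and Ptprc, 15 were lower and 0 higher in the VTA than in S1 (median -0.50), and 15 were lower and 0 higher in the VBT (median -0.29). Of 12 tested genes of activated microglia, 7 were higher and 3 lower in the VTA than in S1 (median 0.34), and 7 were higher and 2 lower in the VBT (median 0.85). Macrophages of the brain borders lie around vessels and in the meninges. Of their 8 marker genes, Mrc1 and Cd163 among them, 4 were higher and 0 lower in the VTA than in S1 (median 0.45), whereas 0 were higher and 5 lower in the VBT than in S1 (median -0.43). All 8 were higher in the VTA than in the VBT (median 1.16, 66% of all genes either way) and than in the NAc (median 1.48, 75.4% either way). Their summed level ran from 18.9 to 68.2 CPM in the VTA and from 22.8 to 45.6 in S1. Summed markers of red blood cells had a median of 155 CPM in the VTA and of 56.2 to 73.9 in the other regions, and the summed monocyte and neutrophil markers stayed at or below 6.07 CPM in all libraries. These markers also moved with the VTA: the 4 tested were all higher there than in S1 (median log2 difference 3.06), the VBT (2.35) and the NAc (2.94), and 3 of 4 than in PrL (1.60). Their summed level had a median of 1.55 CPM in the VTA and 0.336 to 0.640 CPM in the other regions, and their part in the VTA differences was not tested.

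The ligands of the receptors were also unequal between regions. Cx3cl1, the neuronal ligand of Cx3cr1, averaged 173 ± 13.7 CPM in the VTA and 421 ± 59.1 in the VBT, against 679 ± 73.3 in S1, 686 ± 65.4 in PrL and 643 ± 50.2 in the NAc. The ranking of Cx3cl1 thus had the VTA and VBT lowest, as for its receptor. Csf1r has a pair of ligands that are made by different cells, Il34 mainly by neurons and Csf1 mainly by glia. Il34 averaged 15.9 ± 2.97 CPM in the VTA, 8.74 ± 2.33 in the VBT, 47.2 ± 5.48 in S1, 69.99 ± 6.43 in PrL and 53.98 ± 4.36 in the NAc. Csf1 was instead higher in the VTA and VBT, with 35.1 ± 3.65 CPM in the VTA and 30.9 ± 7.25 in the VBT against 15.1 ± 2.38 (NAc) to 17.2 ± 1.73 (PrL) in the forebrain. VTA minus PrL was -2.13 for Cx3cl1, -2.28 for Il34 and 0.89 for Csf1 on the log2 scale, and all 3 passed the test.

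Fentanyl was compared with water within each region in females, in males and averaged over both sexes. The only members that passed in any region were in the VTA of males, where P2ry12 was higher and C1qa, C1qb and C1qc were lower after fentanyl, and in the VTA average, where P2ry12 was higher and C1qa lower. These VTA calls were lost when GC content was modelled. P2ry12 in males was 17.3, 17.0, 17.5 and 17.4 CPM in the water libraries and 25.3, 26.3, 23.4, 18.5 and 23.1 in the fentanyl libraries. The groups did not overlap. The log2 fold change was 0.47 ± 0.10 (SE, adjusted p = 0.00349, edgeR's quasi-likelihood test). C1qa was 22.5, 21.8, 22.4 and 20.1 CPM with water and 13.01, 17.8, 13.3, 13.8 and 13.6 with fentanyl. All fentanyl libraries lay below all water libraries, and the log2 fold change was -0.57 ± 0.12 (adjusted p = 0.00383).

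C1qb, the chain with the highest level, was 25.3, 25.2, 22.4 and 23.5 CPM with water and 17.2, 21.5, 19.99, 17.3 and 18.7 with fentanyl, again without overlap (-0.32 ± 0.10, adjusted p = 0.0327). C1qc was 17.8, 15.3, 16.2 and 14.4 CPM with water and 10.4, 14.7, 11.6, 9.43 and 11.9 with fentanyl. Here the highest fentanyl library exceeded the lowest water library (-0.42 ± 0.11, adjusted p = 0.0134). Tmem119 averaged 12.2 ± 0.653 CPM (n = 4) with water and 9.61 ± 1.59 (n = 5) with fentanyl and did not pass (-0.31, adjusted p = 0.0956). Csf1r (-0.14), Cx3cr1 (-0.01) and Aif1 (0.08) did not pass either, with adjusted p from 0.292 to 0.953. Trem2 had too few counts to be tested in the VTA, VBT and S1. So 4 of the 8 tested members passed in males, 1 higher and 3 lower, where 22% of all genes passed, 11% in each direction. In 19 fits that each left out 1 library, P2ry12 and C1qa passed in 19, C1qc in 18 and C1qb in 13. Without water male 1, 2 members passed, and with the left-out water male 3 kept, 0. P2ry12, C1qa and C1qb had groups that did not overlap, as did 22.4% of all genes.

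In VTA females none of the 8 passed, and neither did any of the 19822 genes tested (0%), although 12.7% of genes had an unadjusted p under 0.05. P2ry12 was 21.2, 22.1, 21.0, 15.8 and 18.9 CPM with water and 25.8, 22.6, 22.9, 24.6 and 22.9 with fentanyl. The groups did not overlap, as in 1.61% of genes, and the log2 fold change was 0.25 ± 0.09 (adjusted p = 0.305). C1qa averaged 19.5 ± 4.16 CPM with water and 19.0 ± 1.07 with fentanyl (n = 5 each). The test of the difference between the sexes' effects found no member (0% of all genes, DESeq2 0 members, limma-voom with sample weights 2, with 2.49% of genes). At an unadjusted p under 0.05 it had 2 of 8 members (11.4% of all genes): C1qa (-0.52, adjusted p = 0.42) and C1qc (-0.44, adjusted p = 0.42). Averaged over the sexes, P2ry12 was higher by 0.36 ± 0.07 (adjusted p = 0.00156) and C1qa lower (-0.31 ± 0.08, adjusted p = 0.0108), where 23.1% of genes passed, 11.1% as higher and 12% as lower. With a water female left out, up to 4 passed (without water female 1 or 2), and with water male 3 kept, 0.

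The direction of the VTA differences in males followed GC content across the transcriptome. Genes of 36% to 41% GC, the band that holds P2ry12, had a median log2 fold change of 0.29, and 33.4% of them passed as higher. Genes of 57% to 60% GC, the band of the 3 C1q genes and Tmem119, had a median of -0.31, and 39.2% of them passed as lower. Across genes, Spearman's rho between GC content and a library's level relative to the VTA mean was 0.586 ± 0.0523 (SD, n = 4) for water males, -0.333 ± 0.185 (n = 5) for fentanyl males, 0.0681 ± 0.485 for water females and -0.312 ± 0.209 for fentanyl females. With offsets for GC content, the log2 fold change was 0.20 for P2ry12 (adjusted p = 0.165), -0.21 for C1qa (adjusted p = 0.149), -0.03 for C1qb and -0.13 for C1qc. None of the 8 passed, against 3.47% of all genes. The RPKM ratio of P2ry12 to C1qb was 0.308 ± 0.0219 in water males and 0.528 ± 0.0634 in fentanyl males.

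**Figure D2:**
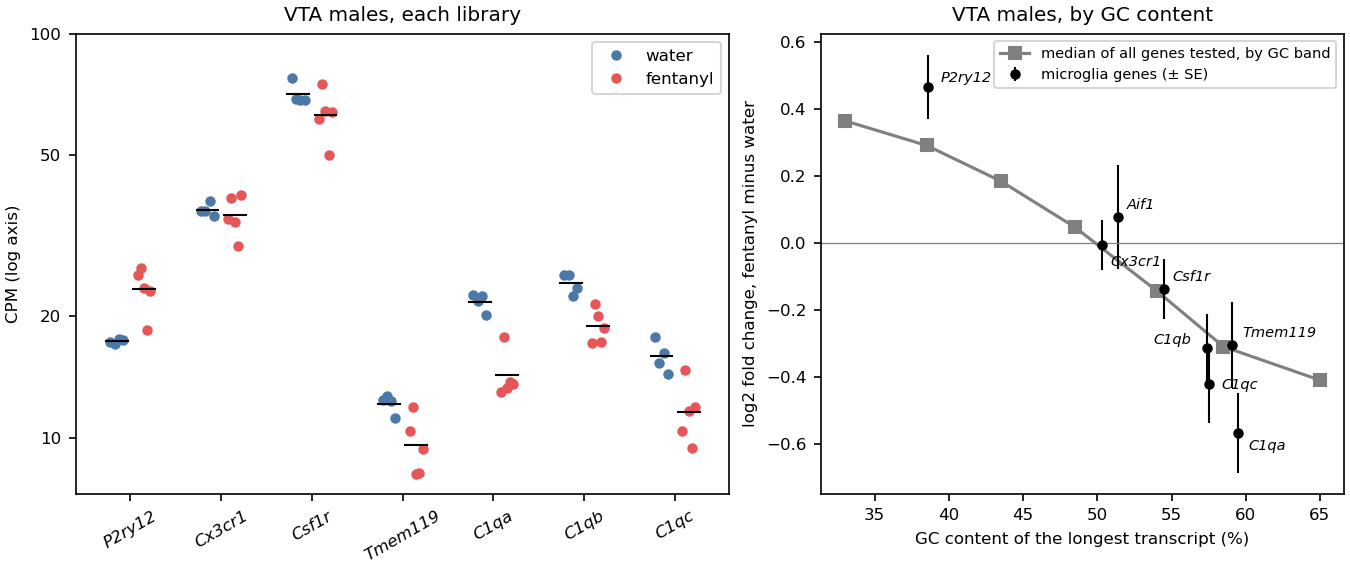
Left, CPM (log axis) of 7 of the genes in the 4 water and 5 fentanyl libraries of VTA males, with bars at the group means. Right, log2 fold change ± SE of each gene against the GC content of its transcript, with the median of all genes by GC band in grey; P2ry12 at 38.6% GC lies at 0.47 and C1qa at 59.5% GC at -0.57, and the grey line runs from above 0 to below 0.

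Of the choroid plexus, red blood cell and border macrophage genes, only choroid plexus genes passed between the VTA male groups. There 22% of all genes passed, 11% as lower. The 6 choroid plexus genes were all lower with fentanyl and 3 passed (median log2 fold change -2.39), with a summed level of 10.6 to 1045 CPM in water and 12.6 to 26.2 CPM in fentanyl libraries. The 5 red blood cell genes were all higher, with none passing (median 0.90, sums of 74.0 to 248 against 82.6 to 490 CPM). The VTA score was 6.07 ± 0.354 in water and 5.198 ± 0.862 in fentanyl libraries. Border macrophage genes were higher in 4 of 8 (median -0.03, none passing). None of these lists had a gene at 0, and their part in the member differences was not tested.

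Among microglia-related genes outside the members in VTA males, where 22% of all genes passed and 11% in each direction, 3 of the 15 further homeostatic genes rose and 2 fell. Gpr34, a lysophospholipid receptor, rose (0.48, adjusted p = 0.0244), and Selplg, a selectin ligand, fell by 0.41 on the log2 scale (adjusted p = 0.0091). Of the 18 general myeloid genes none passed, and 10 of them were higher (median 0.02). Apoe, a lipid carrier that binds Trem2, fell by 0.80 (adjusted p = 0.00299), while Cx3cl1 (-0.10), Csf1 (-0.09) and Il34 (-0.13) did not pass. Among 13 other complement genes 1 rose, the complement inhibitor Cd55 (0.36, adjusted p = 0.042). Among 9 tested genes of activated microglia 1 fell, Csf2ra, a subunit of the receptor for the growth factor GM-CSF (-0.99, adjusted p = 0.00218). Averaged over sexes in the VTA, Tgfbr1 (0.22) and the kinase gene Lyn (0.23) rose, and Selplg (-0.37), the signalling adaptor gene Tyrobp (-0.31), Apoe (-0.49) and Csf2ra (-0.66) fell. In the S1 average Lyn fell by 0.29 (adjusted p = 0.0462). With GC offsets the falls of Selplg and Csf2ra still passed in males (adjusted p = 0.0334 and 0.00442) and in the average, and that of Apoe in males (-0.44, adjusted p = 0.0305). Those of Apoe and Tyrobp in the average did not, nor did Gpr34 (0.18), Cd55 (0.19), Tgfbr1 (0.05) or Lyn (0.15) in the VTA, or Lyn in S1 (-0.27, adjusted p = 0.0566).

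In the NAc most members had higher levels after fentanyl than after water in both sexes, but none passed the adjusted test. In females 9 of 9 were higher (median log2 fold change 0.20). In males and in the average 8 of 9 were higher (medians 0.22 and 0.21), with Trem2 the exception. Of all 19480 genes, 9788 were higher in females, 9545 in males and 9627 in the average. The members other than Trem2 vary together within groups (median Pearson's r over pairs 0.66), so their directions are not independent. No member passed in females (0% of 19480 genes), males (0.662%) or the average (0%). At an unadjusted p under 0.05 there were 3 of 9 in females (9.03% of all genes), 5 of 9 in males (17.6%) and 7 of 9 in the average (12.03%). DESeq2's Wald test called Aif1 and C1qb in males (4.72% of genes) and C1qc and Cx3cr1 in the average (0.565%), and limma-voom with sample weights called Aif1 and C1qc in males (8.07%) and C1qc and Cx3cr1 in the average (1.27%).

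Cx3cr1 was 56.7, 52.7, 55.8, 46.9 and 51.6 CPM in NAc water females and 60.1, 60.9, 61.8, 57.3 and 63.1 in fentanyl females. The groups did not overlap, as in 0.755% of all genes, and the difference was 0.20 ± 0.07 (adjusted p = 0.544). In males Cx3cr1 was 47.1, 63.8, 55.4, 57.6 and 54.03 CPM with water and 59.1, 61.2, 59.1, 70.02 and 65.9 with fentanyl. Water male 2 lay within the fentanyl range, and the difference was 0.22 ± 0.07 (adjusted p = 0.118). Over both sexes the difference was 0.21 ± 0.05 (adjusted p = 0.213). Csf1r in females was 84.2, 82.6, 73.3, 75.2 and 82.3 CPM with water and 90.8, 104, 92.2, 85.8 and 90.4 with fentanyl, without overlap (0.21, adjusted p = 0.544). In males the Csf1r difference was 0.11 (adjusted p = 0.590).

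Aif1, the Iba1 gene, was 3.54, 6.96, 4.39, 5.32 and 4.48 CPM in NAc water males and 6.00, 7.49, 6.84, 7.01 and 6.77 in fentanyl males. Only water male 2 entered the fentanyl range (0.50 ± 0.15, adjusted p = 0.0828). C1qb in males was 19.6, 26.6, 21.3, 25.8 and 25.3 CPM with water and 25.8, 33.3, 24.5, 30.6 and 32.4 with fentanyl, with overlapping groups (0.34 ± 0.10, adjusted p = 0.0904). C1qc in females was 16.8, 20.8, 15.7, 16.2 and 15.9 CPM with water and 20.2, 21.8, 20.002, 20.6 and 20.04 with fentanyl. Water female 2 stood apart from its group there (0.26 ± 0.10, adjusted p = 0.544). C1qc in males differed by 0.29 ± 0.10 (adjusted p = 0.117). C1qa (0.18 in females and 0.24 in males), Tmem119 (0.21 and 0.17) and P2ry12 (0.07 and 0.19) had adjusted p of 0.266 or more. The test of the difference between the sexes' effects found 0 members.

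**Figure D3:**
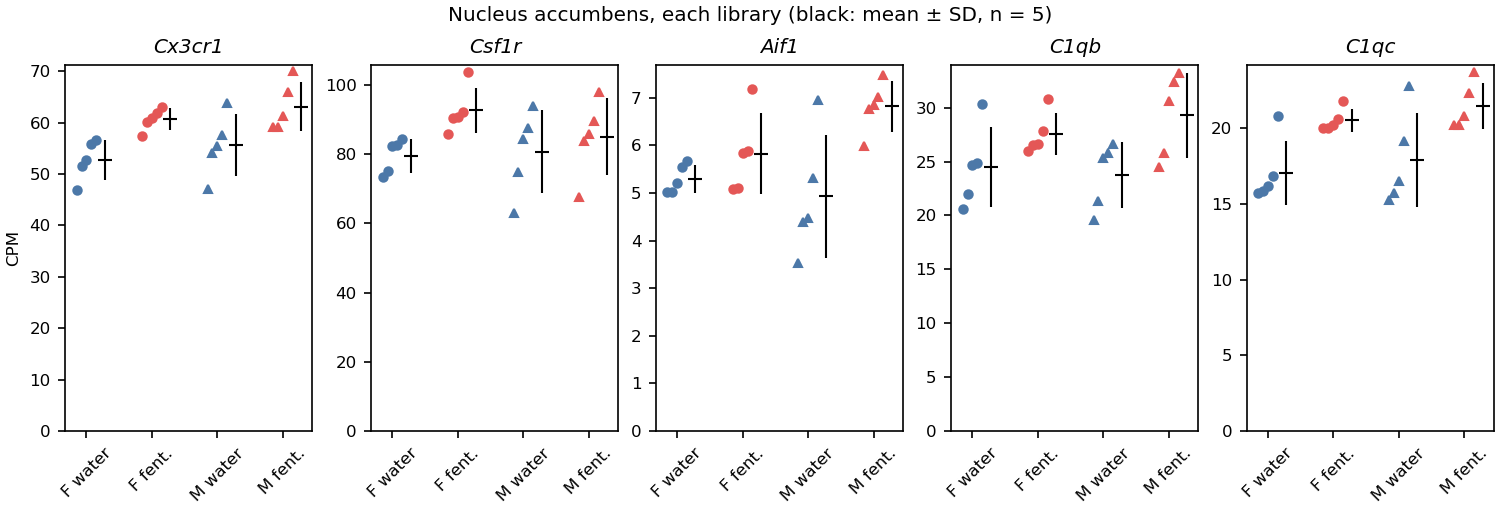
Level (CPM) of Cx3cr1, Csf1r, Aif1, C1qb and C1qc in each NAc library by sex and treatment, with mean ± SD (n = 5 per group). The fentanyl and water points of Cx3cr1 and Csf1r do not overlap in females, and in males water replicate 2 lies within the fentanyl points of Cx3cr1 and Aif1.

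General myeloid genes were mostly higher in the NAc too. Of 18, 16 were higher in females (median 0.15) and 18 in males (median 0.23), with none passing. Of the 15 further homeostatic genes, 12 were higher in females and 11 in males, with none passing. Border macrophage genes were higher in 7 of 8 in females (median 0.27) and in 1 of 8 in males (median -0.31), again with none passing, and their sums ran from 18.8 to 34.5 CPM. Of the 6 monocyte and neutrophil markers, 5 were under 0.1 CPM (Ly6c2, S100a8, S100a9, Ngp and Retnlg). Cx3cl1, Csf1 and Il34 did not pass in the NAc.

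Among other cell types in the NAc, no neuronal or astrocyte marker passed the test in either sex. The log2 differences of the 6 neuronal markers were all below 0 in females (median -0.26, overlapping sums of 2846 to 4033 against 3407 to 5042 CPM), and those of the 6 astrocyte markers all below 0 in males (median -0.21, overlapping sums of 2849 to 3753 against 3258 to 4569 CPM). No gene of either list was at 0. The cortical score was 5.40 ± 0.901 in water and 4.24 ± 1.42 in fentanyl females, and 4.62 ± 0.342 and 4.31 ± 1.30 in males. With that score as a covariate, added after seeing the data, 9 of 9 members were still higher in females (median 0.19) and 8 of 9 in males (median 0.21), and none passed. Cx3cr1 then differed by 0.21 in males (adjusted p = 0.0958) and Aif1 by 0.50 (adjusted p = 0.0582). The part of the neuronal and astrocyte markers was not tested.

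In the VBT, S1 and PrL no member passed in females, males or the average. The background there was 0% in each VBT comparison, 0.142%, 0% and 1.03% in S1 and 0.021%, 0% and 0.697% in PrL. With no adjustment, 0 of 8 members reached p under 0.05 in the VBT and 0 of 8 in S1 in either sex, while in PrL Trem2 alone of the 9 did, in each sex. Of all genes, 7.86% of those in VBT females and 8.70% in VBT males did so, with 13.9% and 7.15% in S1 and 9.53% and 11.97% in PrL. In the VBT the median member difference was -0.05 in females and 0.01 in males, and 0.01 and 0.06 without the 3 libraries with striatal markers. With limma-voom the female median was 0.04, with 6 of 8 members higher against 0 of 8 in the main fit. With the share of reads outside exons as a covariate the male median was 0.13, with 8 of 8 higher against 4 of 8. P2ry12 there differed by -0.14 in females and -0.17 in males, and by -0.08 and -0.05 without them. In S1 the median was 0.04 in females and -0.07 in males, with C1qa at 0.19 and -0.11. Both S1 medians turned under some settings. The female median was -0.02 with GC offsets and -0.01 with exon-length offsets, and the male median 0.02 with the covariate for reads outside exons. DESeq2's Wald test and limma-voom also called no member in these 3 regions.

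**Figure D4:**
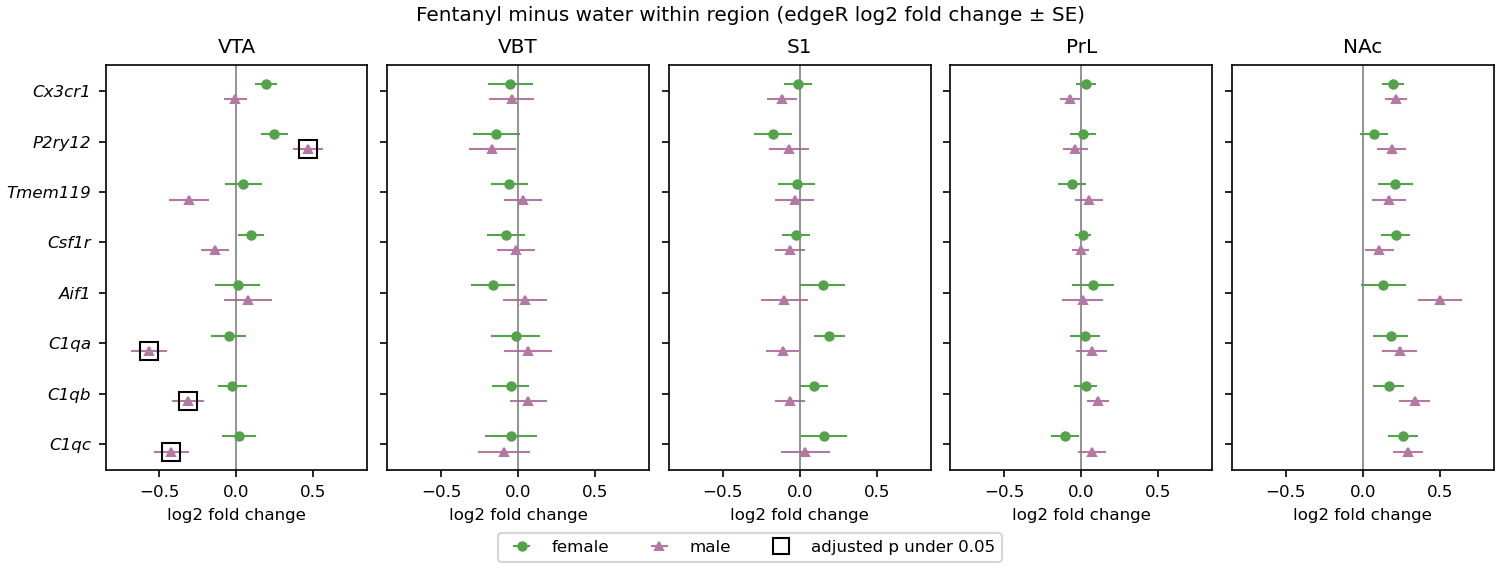
Log2 fold change of fentanyl over water ± SE for 8 of the genes by region (green circles, females; purple triangles, males; squares, adjusted p under 0.05). Squares occur only in VTA males, for P2ry12, C1qa, C1qb and C1qc, and in the NAc the points of both sexes lie above 0.

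Trem2 stood apart from the other members. Its median count was 5, with 5 of 98 libraries at 0, 33 at 1 to 3 and 76 under 10 counts. Only 6 libraries reached 1 CPM. In PrL water females it was 0.0561, 0.236, 0.0963, 0.0593 and 7.995 CPM, and in PrL fentanyl males 2.16, 0.346, 2.03, 0.136 and 8.20 CPM. A single library, with 315 counts, set the mean of the water females, while 3 of the 5 fentanyl males were above 2 CPM. The PrL difference was -3.17 ± 1.38 in females (adjusted p = 0.489) and 3.96 ± 1.40 in males (adjusted p = 0.358). Without water female 5 the female value turned to 0.71, and without fentanyl male 5 the male value was 2.84. The difference between the sexes' effects was 7.13 ± 1.97 (adjusted p = 0.999), and 3.26 without water female 5.

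Within groups, the members other than Trem2 varied together from library to library. After centring log2(CPM + 1) on the 20 group means, Pearson's r over the 98 libraries was 0.34 to 0.86 in the 28 pairs without Trem2 (median 0.66), and -0.17 to 0.13 in the 8 pairs with it (median 0.03). The 3 pairs of C1q genes reached 0.82 to 0.86, Tmem119 and Csf1r 0.81, and Cx3cr1 and P2ry12 0.80. The pair Tmem119 and Aif1 was lowest. These values describe libraries that share punch, depth and base composition. The genes outside the set that were most like the members' mean within groups, among 12069 genes of at least 5 CPM, were Ctss (r = 0.83), Laptm5 (0.80), Mpeg1 (0.78), Vsir (0.75), P2ry13 (0.75), Cyth4 (0.74) and Unc93b1 (0.73). Over the 20 group means, which follow the regions, they were Phactr3 (0.96), Ubtf (0.95), Kcnj4 (0.95), Tyro3 (0.95), Ddn (0.94), Gm49593 (0.94), Bahd1 (0.94) and Fcrls (0.94).

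**Figure D5:**
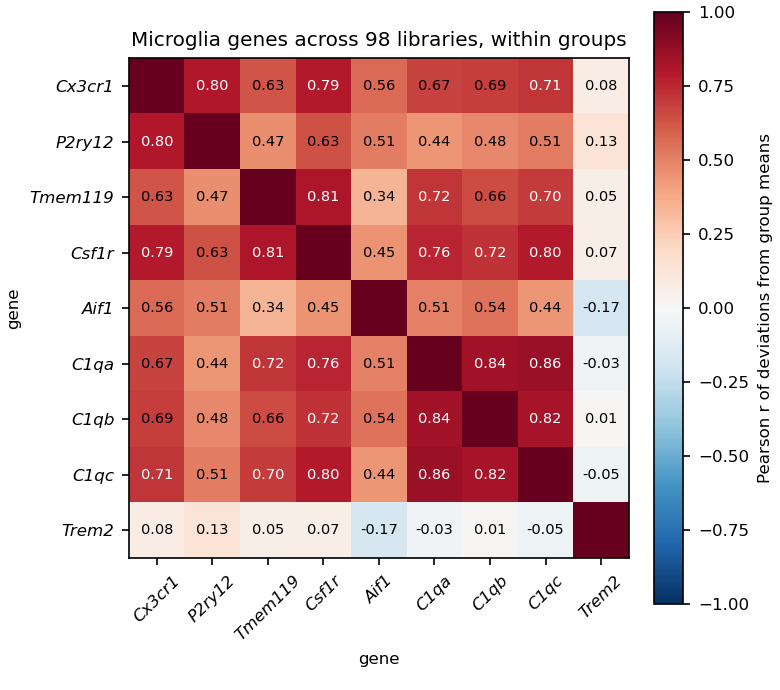
Pearson's r between the 9 genes over 98 libraries after removing group means from log2(CPM + 1). The C1q pairs (0.82 to 0.86) form the brightest block, and the Trem2 row lies near 0.

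Between water males and water females, no member passed in any region. The background was 0.0504% of genes in the VTA, 0.0898% in the VBT, 0.0557% in S1, 0.0472% in PrL and 0.0513% in the NAc. The male minus female difference was -0.21 for P2ry12 in the VTA (adjusted p = 0.455) and -3.32 for Trem2 in PrL (0.55 without water female 5), the only members with an unadjusted p under 0.05 (10.8% of all genes in the VTA, 3.403% in PrL). In the VBT 8 of 8 tested members were higher in males (median 0.17), and 7 of 8 (median 0.10) without the 3 libraries with striatal markers. DESeq2 called no member in these comparisons, and limma-voom called P2ry12 in the VTA, with 14.2% of genes.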

How the data were processed

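The deposited files hold the authors' whole-number read counts per gene, and the submitters' processing notes name HTSeq and GRCm38. The aligner and the strand setting are not given in the sources used here. Libraries were prepared from 10 ng of total RNA with SMART-Seq v4, per the labels' protocols. The 5 lines that name no gene were set aside, and the reads outside exons among them were 9.99% to 18.0% of a library. Symbols came from GENCODE M21 (55154 of 55335 identifiers matched). Counts were tested with edgeR 4.0.16 (TMM, filterByExpr, robust quasi-likelihood F-test) in R 4.3.3, with 4 groups per region for treatment and 20 groups in 1 fit for the regions. Benjamini-Hochberg adjustment ran over all genes tested and calls used an adjusted p under 0.05. SE is the log2 fold change over the root of F. RPKM used summed exon length. Alternatives were DESeq2 1.42.0, limma 3.58.1 voom with sample weights, no filter, a replicate block, offsets for exon length or for GC content (also in the fit of the regions, added after seeing the data), water libraries alone for the regions, the share of reads outside exons as a covariate, and leaving out each library. Scripts were tested on simulated data. The 9 genes, the other lists and the naming rule (all 9 genes, and per list and comparison the called gene of smallest p in each direction, the 3 ligands Cx3cl1, Csf1 and Il34, and the 8 genes most like the members) were chosen with earlier results of these data known. Of the genes most like the members, 1 is not reported here.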

Additional observations from a re-analysis of the deposited data

Results flagged for a closer look

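In groups of 4 or 5 libraries, 12 of 180 sets of values had 1 library far from the rest, where chance gives about 1 in 20, or 9. Of the 12, 6 were Trem2: VTA water female 5 (0.785 CPM), PrL water female 5 (7.995), PrL fentanyl male 5 (8.20), NAc fentanyl female 4 (1.52), NAc water female 3 (0.636) and NAc water male 3 (1.77). P2ry12 stood at 26.2 CPM in VBT fentanyl male 5, where the other 4 lay between 18.8 and 20.3, and that library is among the 3 with striatal markers. Csf1r stood at 77.6 CPM in VTA water male 1, with the others between 68.6 and 69.1. Aif1 stood high in VTA fentanyl female 4 (4.603 CPM, others 2.98 to 3.26) and low in VTA water male 4 (2.83, others 3.69 to 3.86). C1qa stood at 17.8 CPM in VTA fentanyl male 2, with the others between 13.01 and 13.8, and C1qc at 20.8 CPM in NAc water female 2, with the others between 15.7 and 16.8.

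VTA water male 3, left out of the comparisons, had 2 members above the range of the other 19 VTA libraries. Csf1r reached 111 CPM (1835 counts) there, against 53.8 to 78.6 in the other VTA water libraries, and C1qc 64.4 CPM (1063 counts), against 11.1 to 17.8. C1qb stood at 25.7 CPM (424 counts), and the other 6 members had 0 counts.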

How the results depend on the processing

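In VTA males the number of members passing the test was 4, and 0 with offsets for GC content or with VTA water male 3 kept. It was 2 to 5 when a library was left out (2 without water male 1). In the VTA average it was 2, 0 with GC offsets, 0 with that library kept, 4 with the share of reads outside exons as covariate, and 2 to 4 with a library left out (water female 1 or 2). With limma-voom, 2 passed in the VTA test of a sex difference in effect and 1 between water males and females (P2ry12, -0.25, adjusted p = 0.033), where edgeR called 0. In NAc males DESeq2 called 2, limma-voom 2 and GC offsets 1, and in the NAc average DESeq2 2, limma-voom 2 and the covariate 1. VTA minus NAc had 9 and, in water libraries alone, 5. VTA minus S1 had 8 and 6 there, and VBT minus NAc 6 lower against 3 lower and 1 higher. With GC offsets, chosen after seeing the data, VBT minus NAc had 8 lower, VBT minus PrL 9 against 8 and VTA minus VBT 7 against 6. The shares of all genes passing in the water and GC-offset fits of the regions are not given here. S1 minus PrL had 4, 1 in water libraries alone, 1 with VTA water male 3 kept, and 2 to 4 with a replicate number left out (2 or 5). S1 minus NAc had 2, 1 with no filter, 1 with that library kept and 1 to 2 by replicate number (4). PrL minus NAc had 3, 0 with that library kept, 1 to 4 by replicate number (1), and 1 with the replicate block. Among members that passed under some setting, directions turned for C1qb (0.028) and C1qc (0.00082) in the VTA average with GC offsets, for Tmem119 in VTA males (0.045 with GC offsets, 0.015 with the library kept) and for C1qb in VBT minus PrL (-0.12 with GC offsets, chosen after seeing the data). Members that did not pass turned too. With GC offsets the members higher went from 2 to 5 of 8 in VTA males, 3 to 7 in the VTA average and 6 to 8 in VTA females. With the share of reads outside exons as a covariate they went from 2 to 7 of 8 in the VBT average. In S1 males they then went from 1 to 5 of 8. With limma-voom they went from 0 to 6 of 8 in VBT females. Trem2 in PrL females turned to 0.71 without water female 5. Keeping VTA water male 3 shifted the median of all genes in VTA males by 0.20. The causes were not tested. Of the recomputed counts of members passing, 803 were within 1.5 times the main count (which can hide lost or gained calls), 11 were higher and 16 lower by more. Of the values of single members, 83 no longer passed, 42 newly passed and 5 turned, counting for treatment only members that passed under some setting with no library left out, and for regions only turns of values that passed before or after. The labels do not say whether replicate numbers pair libraries, and the correlations did not show it throughout: 18 of 48 treatment pairs had a correlation of deviations over 0.1 (-0.49 to 0.54), and 73 of 192 region pairs (-0.30 to 0.51), with the most in S1 with PrL (13 of 19) and S1 with NAc (12 of 19). The block moved no other count of members by over 1.5 times. It could not estimate the sex difference in water. Trem2 had a median of 5 counts per library, which limits the precision of its values.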
